A study of Saccharomyces cerevisiae with 12 samples.

Results

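The large subunit of the mitochondrial ribosome in budding yeast (Saccharomyces cerevisiae) is built from RNA encoded in the mitochondrion and from proteins encoded in the nucleus. The 34 genes described here are the nuclear MRPL genes for large-subunit proteins, taken by their systematic names from the 6465 gene intervals counted in the series. Mitochondrial ribosomes translate a handful of proteins, nearly all of them membrane subunits of the respiratory chain and the ATP synthase, and their proteins are made in the cytosol and imported. The genes are transcribed by RNA polymerase II, and their mRNAs are known targets of Puf3, a protein that binds the 3′ ends of mRNAs for mitochondrial proteins and promotes their decay when cells grow on glucose, as they did here. Of the 34 proteins, 21 belong to families with a bacterial counterpart and 13 are found only in mitochondrial ribosomes.

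New RNA was followed by SLAM-seq, in which cells take up 4-thiouracil and the labelled bases are read as T>C conversions, in 12 libraries from 4 groups of 3 biological replicates. These were the ET strain (RDY388) with IAA, the ET strain with DMSO, the control strain (RDY73) with IAA and the control strain with DMSO. Both strains carried pGPD1-OsTIR1:HIS3, BDF2-3xV5-mAID::KanMX and BDF1-3xV5-mAID::URA3, so that IAA (indole-3-acetic acid, an auxin) leads to degradation of the BET proteins Bdf1 and Bdf2, and both therefore make tagged Bdf1 and Bdf2 even in DMSO, the solvent. The ET strain was derived from the control strain and also carried pJR15 at the TRP1 locus, which makes the extra-terminal (ET) domain of Bdf1 from the GPM1 promoter with the RPL25 nuclear localization signal, a 3xV5 tag and the BDF1 terminator. Cells received 1 mM IAA or DMSO for 25 min and then 5 mM 4-thiouracil for 4 min, and labelled Schizosaccharomyces pombe cells were added before RNA was purified. One strain of each kind was used, so that the ET domain and anything else that differs between the strains cannot be told apart.

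Libraries held 6279282 to 11395597 S. cerevisiae reads, of which 90321 to 330857 were T>C reads with at least 2 conversions, and 445036 to 722822 S. pombe reads. The labelled share of all S. cerevisiae reads was 1.64 to 1.83% in the ET strain with IAA, 2.90 to 3.42% in the ET strain with DMSO, 1.29 to 1.44% in the control strain with IAA and 2.60 to 2.69% in the control strain with DMSO. BDF1 and TRP1, parts of which pJR15 holds, had 3461 to 5385 and 457 to 1125 reads in ET libraries against 942 to 1337 and 12 to 41 in control libraries. Multimapping reads were 0.381% of the reads of the 34 genes.

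The genes lie on 12 nuclear chromosomes, with at most 5 on any one, and each counted interval was the gene with 250 bp beyond its 3′ end in the R64 genome. MRPL44 alone has an intron in its coding sequence. For 8 genes the interval ran into 1 neighbour, or 2 for MRPL25, transcribed in the same direction, whose reads it could share. For MRPL19 (YNL185C) the overlap was 363 bp, for MRPL25 (YGR076C) 84 with the neighbour of the larger overlap, for MRPL44 (YMR225C) 61, for MRPL8 (YJL063C) 49 and for MRPL20 (YKR085C) 47, and it was 12 bp or less for MRPL36, MRPL9 and MRPL49.

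A sequence that all 34 genes shared was the core of the Puf3 site. TGTANATA was searched on the sense strand in the 250 bases after the stop codon of 6006 protein-coding genes, of which 910 (15.2%) held it. All 34 MRPL genes held it (100.0%), 25 of them once and 9 at 2 or 3 positions, and the first copy began 13 to 136 bases after the stop codon with a median of 47.5. A C stood 2 bases before at least 1 copy in 28 of the 34 genes (82.4%), against 267 of the 910 genes with a site (29.3%). The base at N was A in at least 1 copy of 16 genes, T in 13, C in 11 and G in 1. The sites below belong to the genes on which the results turn, are read 5′ to 3′ in the sense of the mRNA from the R64 reference, and have the motif in capitals. MRPL3, MRPL24 and MRPL33 hold 2 copies each, and the second is given for MRPL3 and MRPL24 and the first for MRPL33. In MRPL24 the C stands before the first copy, which is not given.
MRPL17, chrXIV:171334-171363, minus strand: cgtcaatcacaTGTAAATAtcattaaatga
MRPL33, chrXIII:842249-842278, plus strand: tgacttatataTGTATATAgtattattttt
MRPL39, chrXIII:251207-251236, minus strand: ttcatttatccTGTAAATAagtaatggata
MRPL25, chrVII:637008-637037, minus strand: atgtctaatcaTGTAAATAattttgtgata
MRPL37, chrII:741638-741667, plus strand: tttggtatcctTGTAAATAaatatgtgtgt
MRPL15, chrXII:760291-760320, plus strand: aaaaatttatcTGTAAATAgtgatcgaaat
MRPL27, chrII:768698-768727, plus strand: ttcaatatgcgTGTAAATActagttttcga
MRPL3, chrXIII:323089-323118, plus strand: gaatacattctTGTACATAtatatatacac
MRPL24, chrXIII:650880-650909, plus strand: gcatatctgttTGTACATAtgtaggtatgc

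The motif was searched in other genes of mitochondrial translation in the same way. It was present in all 11 other large-subunit genes, in 30 of 31 small-subunit genes (96.8%), in all 13 mitochondrial tRNA synthetase genes, in 6 of 8 translation factor genes and in 4 of 6 assembly factor genes. By contrast, promoter elements searched in the 250 bases before the start codon on both strands were about as common in the MRPL genes as in all protein-coding genes, or less so. TATAAA, the TATA element, occurred in 15 of the 34 genes (44.1%) and in 43.5% of all protein-coding genes, AATTTT, an element described for ribosomal genes, in 12 (35.3%) and 48.6%, and CCAAT, the element bound by the Hap complex, in 9 (26.5%) and 35.4%. Among the other lists TATAAA occurred in 2 of the 11 other large-subunit genes (18.2%) and 6 of the 31 small-subunit genes (19.4%), and in 50.0% to 61.5% of the genes of the remaining 3 lists.

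Summed over the 34 genes, new and total RNA were both lower with IAA than with DMSO in both strains. In the ET strain the genes had 321, 426 and 467 T>C reads with IAA, against 1367, 1641 and 1743 with DMSO. In the control strain they had 226, 152 and 216 T>C reads with IAA, against 1282, 1402 and 1147 with DMSO. Per 1000 S. pombe reads this was 0.623 ± 0.149 T>C reads in the ET strain with IAA and 2.74 ± 0.779 with DMSO, 4.40-fold less, and 0.349 ± 0.00689 in the control strain with IAA and 2.08 ± 0.136 with DMSO, 5.97-fold less (SD, n = 3 each). All IAA libraries lay below all DMSO libraries, and all 3 ET libraries with IAA lay above the 3 control libraries with IAA. The 3 ET libraries with DMSO also lay above the 3 control libraries with DMSO, at 2.27 to 3.64 against 1.98 to 2.24.

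All reads of the 34 genes, which count old and new RNA, moved the same way. They came to 12.8 ± 2.25 per 1000 S. pombe reads in the ET strain with IAA and 36.9 ± 6.32 with DMSO, 2.89-fold less, and to 9.25 ± 0.426 in the control strain with IAA and 32.5 ± 2.03 with DMSO, 3.51-fold less (SD, n = 3 each). One ET library with DMSO, replicate C, had 44.2 reads per 1000 S. pombe reads where the others had 33.2 and 33.3. A level per S. pombe read falls both when there are fewer S. cerevisiae cells and when each holds less of the RNA. Total S. cerevisiae over total S. pombe reads averaged 14.7 with IAA and 17.5 with DMSO in the ET strain. In the control strain the values were 14.4 and 16.3. Scaled within S. cerevisiae reads, where the number of cells drops out, all reads of the 34 genes were also lower with IAA. They were 2.43-fold lower in the ET strain and 3.10-fold lower in the control strain. How much cell number added to the fall per S. pombe read was not tested. In RPM, scaled to all S. cerevisiae reads of a library, the T>C reads of the 34 genes were 42.0 ± 5.07 in the ET strain with IAA, 155 ± 23.3 in the ET strain with DMSO, 24.3 ± 0.18 in the control strain with IAA and 128 ± 1.77 in the control strain with DMSO (SD, n = 3 each).

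**Figure D1:**
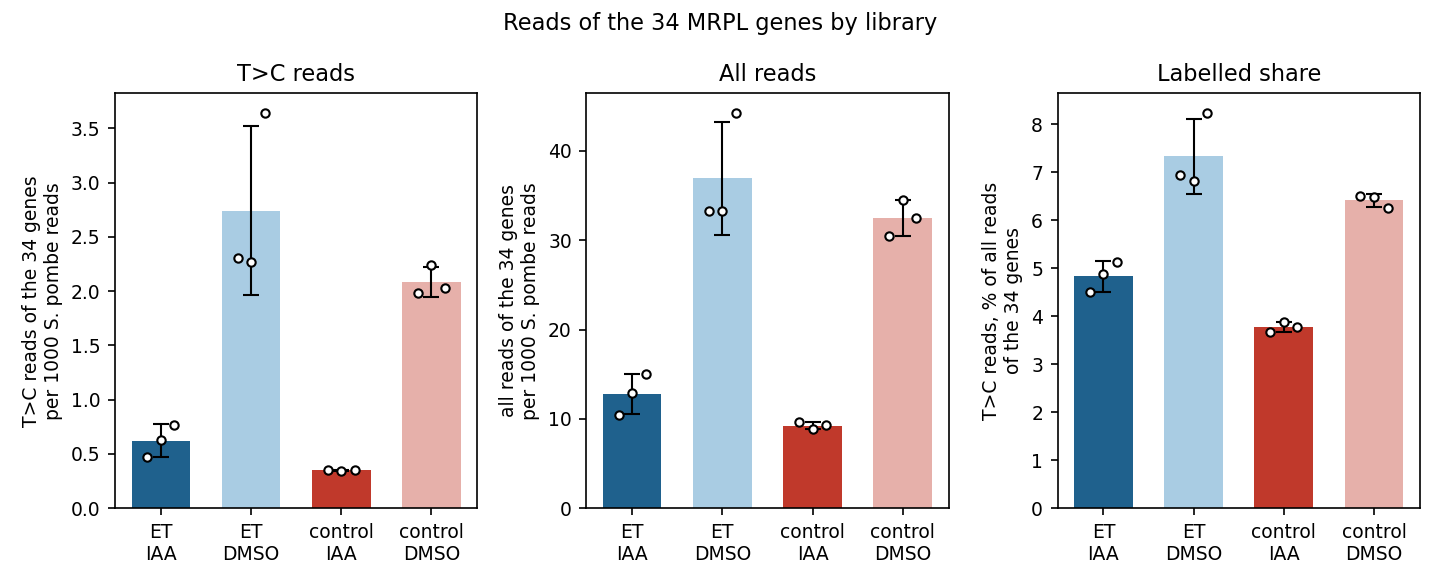
T>C reads and all reads of the 34 MRPL genes per 1000 S. pombe reads, and the percent of their reads that were T>C reads, for each library (points), with the mean (bars) and SD (error bars) of 3 libraries a group. T>C reads averaged 0.623 in the ET strain with IAA and 2.74 with DMSO, and 0.349 in the control strain with IAA and 2.08 with DMSO.

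The labelled share, the percent of a gene's reads that were T>C reads, needs no scaling between libraries. Over the 34 genes together it was 4.83% ± 0.319 in the ET strain with IAA and 7.33% ± 0.78 with DMSO, and 3.78% ± 0.101 in the control strain with IAA and 6.42% ± 0.135 with DMSO (SD, n = 3 each). The IAA and DMSO libraries did not overlap in either strain, nor did the ET and control libraries with IAA. With DMSO the ET and control libraries did not overlap either, at 6.82 to 8.23% against 6.26 to 6.51%. The labelled share of all S. cerevisiae reads was also higher in every ET library than in every control library of the same treatment. Gene by gene, with the 3 libraries of a group summed, the share was lower with IAA than with DMSO for 32 of 34 genes in the ET strain and for 33 of 34 in the control strain. The exceptions were MRPL27 and MRPL13 in the ET strain and MRPL15 in the control strain. The same count was not made over all genes tested, so these numbers do not set the MRPL genes apart. The median share of all genes tested was also lower with IAA, at 4.20% against 6.71% in the ET strain and 3.45% against 5.76% in the control strain.

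The median share over the MRPL genes was 5.30% ± 0.223 in the ET strain with IAA and 3.62% ± 0.228 in the control strain with IAA, and the median over all genes tested was 4.20% ± 0.225 and 3.45% ± 0.144 in these groups (SD over 3 libraries). With DMSO the MRPL median was 7.66% ± 1.05 in the ET strain and 6.91% ± 0.417 in the control strain, against 6.71% ± 0.636 and 5.76% ± 0.234 over all genes tested. Among the MRPL genes in the control strain with DMSO the share ran from 2.58% for MRPL44 to 11.6% for MRPL32 (YCR003W), whose protein bL32m is processed by the m-AAA protease before it joins the ribosome. MRPL32 had 403 T>C reads of 3477, a share with a 95% exact binomial interval of 10.5 to 12.7%, and MRPL33 (YMR286W), with 97 of 3479, had 2.79% (2.27 to 3.39%). These intervals cover counting error only, and they did not overlap.

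**Figure D2:**
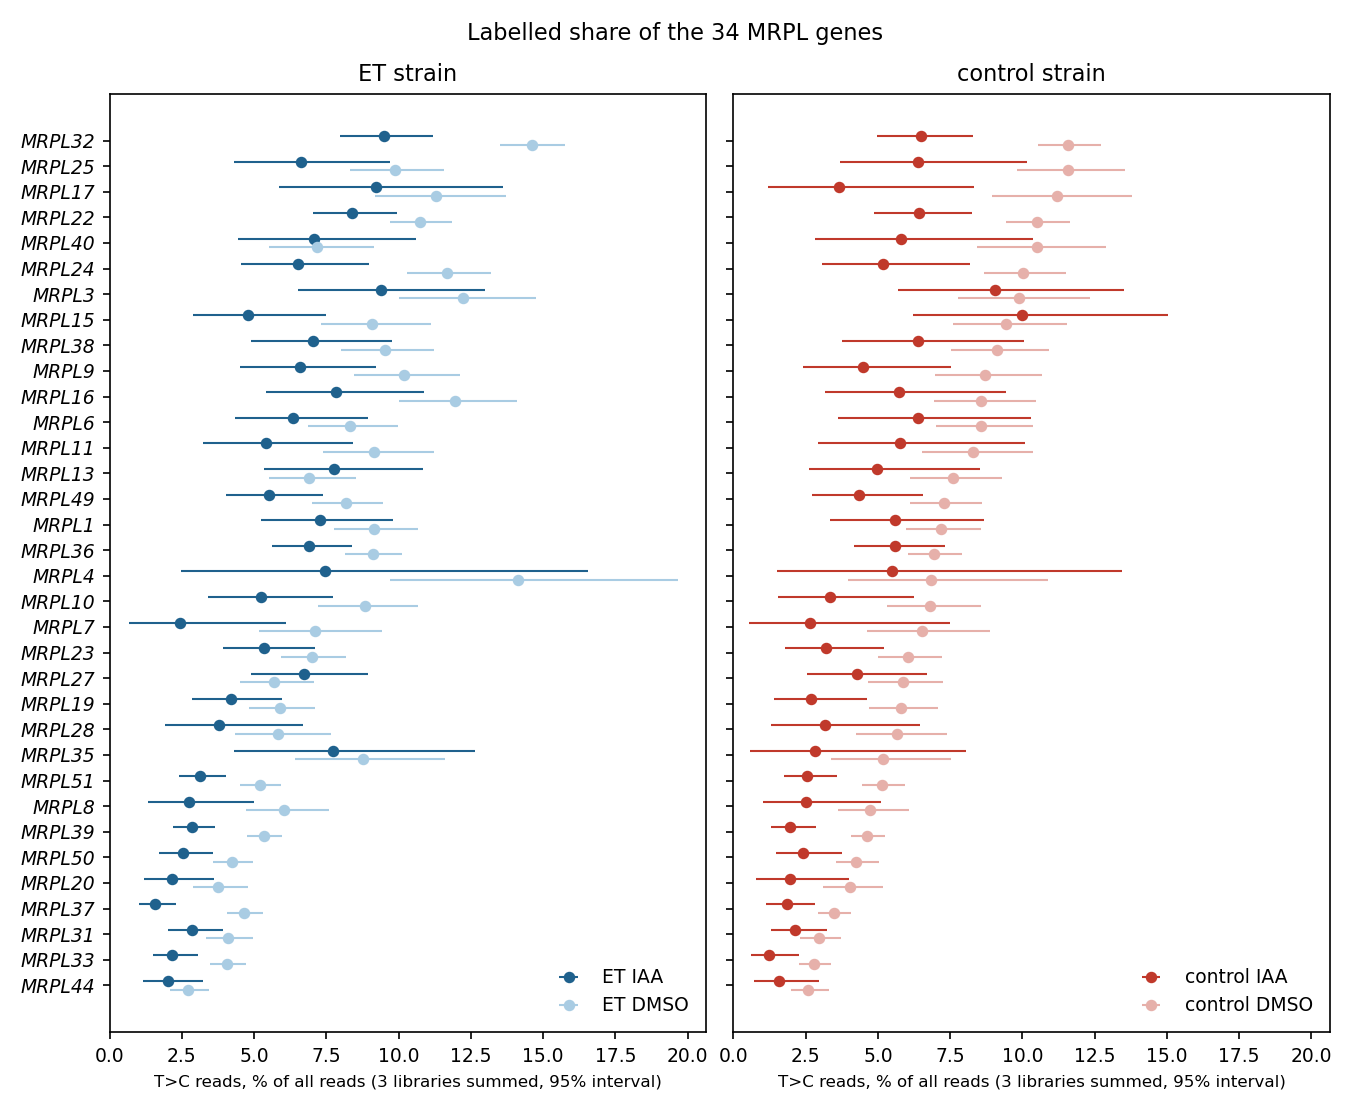
Labelled share of each of the 34 MRPL genes in the ET strain (left) and the control strain (right), with IAA (dark) and DMSO (light). Points are T>C reads as a percent of all reads over 3 summed libraries, and bars are 95% exact binomial intervals. The share was lower with IAA for 32 genes in the ET strain and 33 in the control strain, and the median share of all genes tested was lower with IAA too.

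The next comparison asked which of the genes lost new RNA when Bdf1 and Bdf2 were degraded in the control strain. T>C reads were tested with edgeR's quasi-likelihood test across the 3677 genes for which no library lacked a T>C read, and 28 of the 34 MRPL genes were among them. Library size factors came from all reads, so that a log2 change of 0 means a change equal to that of the total reads of the median gene, which themselves dropped against S. pombe. Of the 28 genes, 22 fell and none rose with IAA against DMSO, where 28.7% of all genes tested fell and 14.3% rose. The median log2 change was -1.25 for the MRPL genes and -0.46 for all genes tested. The count of 22 became 9 with factors computed from the T>C counts themselves, under which 14% of all genes fell and 22.5% rose. Every gene of the 28 had a log2 change below 0, and the share of all genes below 0 is not given. For 21 of the 28 all IAA libraries lay below all DMSO libraries, as they did for 35.8% of all genes tested.

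Of the 17 tested genes whose proteins have bacterial counterparts, 16 fell, with a median log2 change of -1.24, and of the 11 mitochondria-specific ones 6 fell, with a median of -1.34. MRPL33, which encodes uL30m, had T>C reads over the size factor of 9.63, 2.26 and 5.17 in the control strain with IAA, against 21.7, 21.7 and 21.4 with DMSO. Its log2 change was -1.82 ± 0.47 (SE, edgeR adjusted p = 0.00116). MRPL39 (YML009C), which encodes bL33m, had 19.3, 13.5 and 15.5 with IAA against 67.6, 49.9 and 42.8 with DMSO, a log2 change of -1.71 ± 0.31 (edgeR adjusted p = 3.12e-06).

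In both genes the IAA libraries lay below all DMSO libraries. MRPL17 (YNL252C), which encodes the mitochondria-specific mL46, had the largest fall of the 28. It had 3, 1 and 1 T>C reads in the control strain with IAA against 25, 27 and 25 with DMSO, or 4.82, 2.26 and 1.72 against 15.9, 17.3 and 18.5 over the size factor. The log2 change was -2.46 ± 0.57 (edgeR adjusted p = 0.000268), a value that rests on 5 reads with IAA. MRPL25, which encodes mL59 and shares at most 84 bp with either of 2 neighbours, had 16.1, 9.03 and 3.45 with IAA against 25.5, 32.6 and 33.2 with DMSO, a log2 change of -1.64 ± 0.40 (edgeR adjusted p = 0.000537).

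The groups did not overlap for MRPL17 or MRPL25. The other genes that fell encode the uL1m of the L1 stalk (MRPL1, YDR116C), uL10m and uL11m at the base of the factor-binding stalk (MRPL11, MRPL19), uL3m near the catalytic centre (MRPL9), uL22m at the wall of the exit tunnel (MRPL22), and uL6m, uL13m, uL14m, uL15m, uL16m, uL24m, bL9m, bL21m and bL32m (MRPL6, MRPL23, MRPL38, MRPL10, MRPL16, MRPL40, MRPL50, MRPL49, MRPL32), with the mitochondria-specific mL43, mL53, mL54 and mL58 (MRPL51, MRPL44, MRPL37, MRPL20). Their log2 changes ran from -1.58 for MRPL20 to -1.05 for MRPL22. The 6 that did not pass were MRPL28, MRPL15, MRPL27, MRPL36, MRPL31 and MRPL3, at -1.36, -0.63, -0.63, -0.62, -0.35 and -0.25, with edgeR adjusted p from 0.0561 for MRPL28 to 0.654 for MRPL3. Apart from MRPL36, whose protein is bL31m, these encode mitochondria-specific proteins.

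MRPL3 (YMR024W), which encodes mL44, a protein with a ribonuclease III fold, shows how wide the spread of a single gene was. It had 3.21, 18.1 and 19.0 T>C reads over the size factor in the control strain with IAA, against 13.4, 21.7 and 10.3 with DMSO, so that the groups overlapped. Its sign turned when control IAA replicate A or control DMSO replicate B was left out, to 0.28 and 0.11, and with factors computed from the T>C counts it was 0.12.

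When the ET domain was overexpressed, depletion lowered 17 of the 28 genes and raised none, with 30.2% of all genes tested falling and 12.1% rising. The median log2 change was -0.92 for the MRPL genes and -0.48 for all genes tested, and for 21 of the 28 genes all IAA libraries lay below all DMSO libraries, as they did for 38.6% of all genes tested. By class, 12 of 17 genes with bacterial counterparts fell (median -0.87) and 5 of 11 mitochondria-specific ones (median -1.0). The count of 17 became 6 with factors from the T>C counts, under which 11.4% of all genes fell, and 11 in DESeq2, under which 22.7% fell. It was 8 without ET DMSO replicate C (22.05% of all genes fell), 10 without ET IAA replicate A (21.4%) and 10 without ET IAA replicate C (25.1%). Of the 28 genes, 15 fell in both strains, 2 (MRPL15 and MRPL36) passed in the ET strain alone, 7 in the control strain alone and 4 in neither, which does not show that the strains differed.

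MRPL37 (YBR268W), which encodes mL54, fell most. It had 8.87, 10.1 and 12.5 T>C reads over the size factor in the ET strain with IAA, against 56.7, 34.9 and 42.8 with DMSO, a log2 change of -2.06 ± 0.34 (edgeR adjusted p = 3.94e-07). The IAA libraries lay far below the DMSO libraries. In the control strain its log2 change was -1.39 ± 0.38.

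MRPL25 had 7.39, 12.6 and 10.2 in the ET strain with IAA against 23.1, 38.2 and 20.8 with DMSO, a log2 change of -1.43 ± 0.36 (edgeR adjusted p = 0.000993). MRPL33 had 7.39, 25.2 and 7.95 with IAA against 25.9, 30.4 and 46.7 with DMSO, a log2 change of -1.33 ± 0.34 (edgeR adjusted p = 0.00106). For MRPL33 replicate B with IAA came close to the lowest DMSO library. MRPL15 (YLR312W-A), which encodes mL57, had 7.39, 10.1 and 5.68 with IAA against 14.7, 15.5 and 23.4 with DMSO, a log2 change of -1.20 ± 0.42 (edgeR adjusted p = 0.0147).

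MRPL15 did not pass in the control strain, where its values overlapped at 12.8, 4.52 and 17.2 with IAA against 20.4, 16.0 and 19.9 with DMSO. MRPL27 (YBR282W), which encodes mL41, was the gene among the 28 with a log2 change above 0 in the ET strain, at 0.16 ± 0.35 (edgeR adjusted p = 0.72). It had 14.8, 13.9 and 25.0 with IAA against 16.1, 12.7 and 20.1 with DMSO, so that the groups overlapped. Its sign depended on the scaling, and it was -0.995 with S. pombe offsets and -0.76 with the sum of S. cerevisiae reads.

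**Figure D3:**
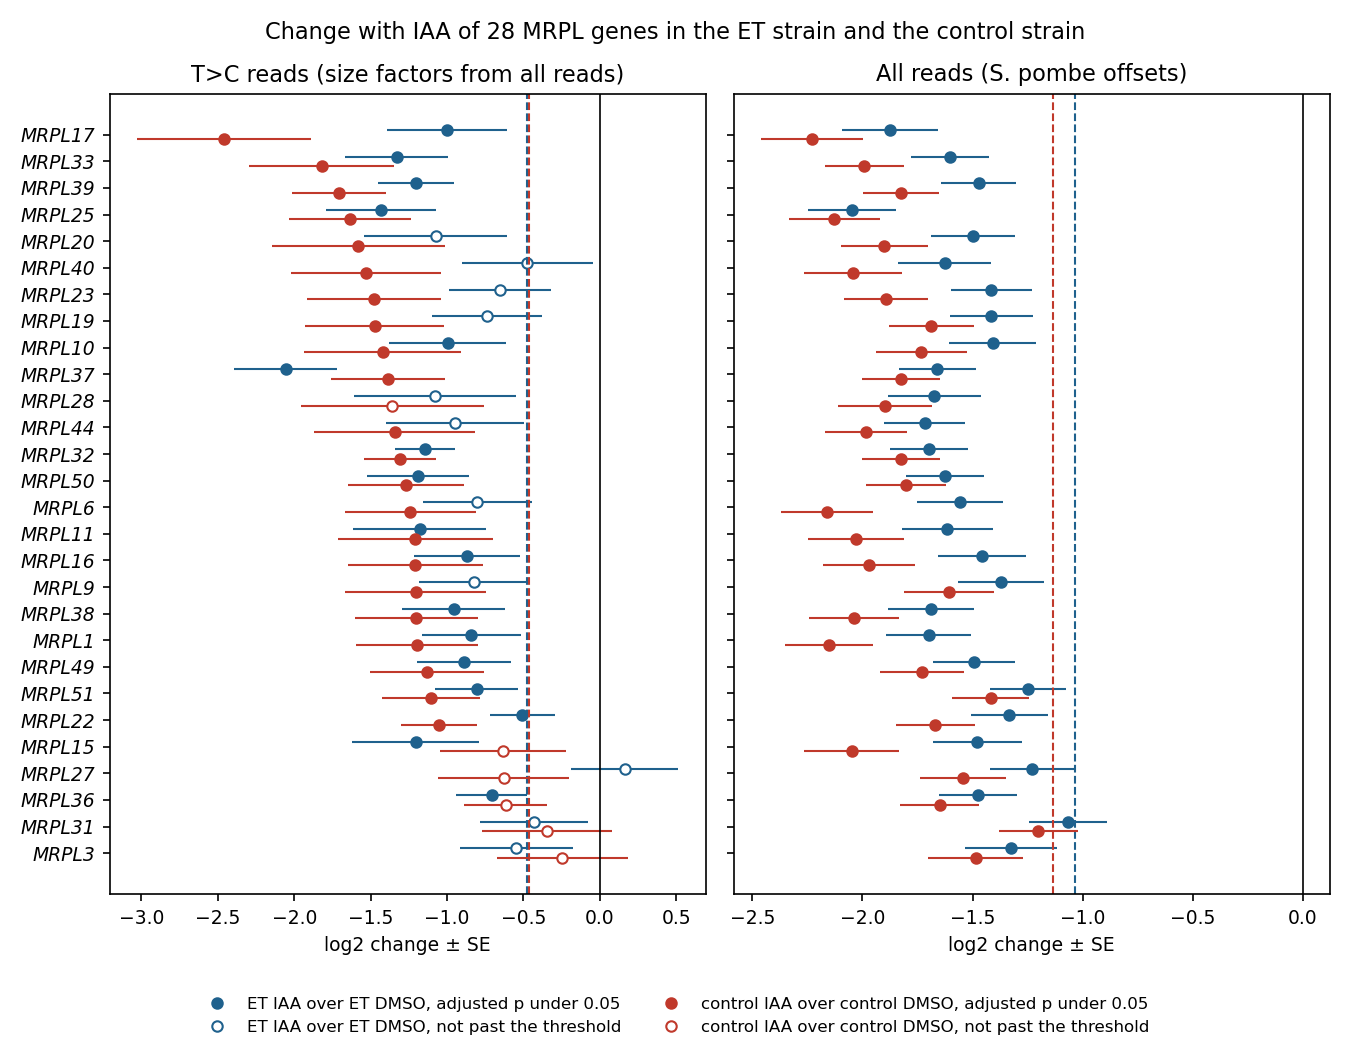
Log2 change with IAA against DMSO of the 28 MRPL genes tested, in the ET strain (blue) and the control strain (red), for T>C reads (left) and all reads (right), with SE. Filled points had an adjusted p under 0.05, and dashed lines are medians over all 3677 genes tested, which were -0.48 and -0.46 for T>C reads and -1.03 and -1.13 for all reads.

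The 6 MRPL genes left out of the test had no T>C read in at least 1 library with IAA. MRPL24 (YMR193W), which encodes bL28m, had 9 to 15 T>C reads in the ET strain with IAA and 62 to 83 with DMSO, and 0 to 10 in the control strain with IAA and 54 to 70 with DMSO. MRPL13 (mL50) had 2 to 18 in the ET strain with IAA and 22 to 36 with DMSO, and 0 to 10 in the control strain with IAA and 22 to 38 with DMSO. For both genes every library with IAA had fewer T>C reads than every library with DMSO of its strain, though the IAA libraries also held fewer T>C reads in all. Over the size factor this still held for MRPL24 but not for MRPL13. MRPL13 then had 2.96, 13.9 and 20.4 in the ET strain with IAA against 15.4, 19.9 and 14.3 with DMSO. In the control strain it had 16.1, 0 and 3.45 with IAA against 24.2, 16.0 and 16.2 with DMSO. Without a filter on T>C reads its log2 change was -0.35 ± 0.39 in the ET strain (edgeR adjusted p = 0.489). In the control strain it was -1.38 ± 0.48 (edgeR adjusted p = 0.0174).

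MRPL8 (bL17m) had 1 to 6 reads in the ET strain with IAA and 19 to 29 with DMSO, and 0 to 5 in the control strain with IAA and 16 to 24 with DMSO. MRPL7 (uL5m) had at most 4 reads in any library with IAA and 10 to 16 in those with DMSO. MRPL4 (uL29m) and MRPL35 (mL38) had at most 6 reads in any library with IAA and at most 24 in those with DMSO. When no filter on T>C reads was set, all 34 were fitted among 6214 genes and 18 fell in the ET strain and 25 in the control strain, where 23.8% and 25.5% of all genes fell, and none rose.

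Relative to S. pombe reads, the fall of new RNA was larger and took in every gene tested. With these offsets the median log2 change in T>C reads was -2.08 for the 28 genes in the ET strain and -2.57 in the control strain, against -1.64 and -1.78 over all genes tested, and all 28 passed in each strain. This was set against a background in which 83.7% of all genes fell in the ET strain and 81.7% in the control strain. A change of offsets moves all genes by nearly the same amount, so the distance of the MRPL median from that of all genes hardly depends on the scale. On either scale this distance was larger in the control strain than in the ET strain.

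All reads were tested for the same 28 genes with offsets from the S. pombe reads. Each of the 28 fell in both strains, with edgeR adjusted p of 5.1e-09 or less in the ET strain and 6.52e-11 or less in the control strain, where 75.8% and 74.2% of all genes tested fell and 0.979% and 2.2% rose. For all 28 the IAA libraries lay below the DMSO libraries in both strains, as they did for 72.5% of all genes tested in the ET strain and 79.1% in the control strain. The median log2 change was -1.50 in the ET strain and -1.86 in the control strain, against -1.03 and -1.13 over all genes tested. In a fit of the 5240 genes with at least 10 reads in every library, added after the data were seen, all 34 genes fell in both strains, with medians of -1.61 in the ET strain and -1.90 in the control strain, where 79.4% and 78% of genes fell.

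Among genes with bacterial counterparts, MRPL6 (YHR147C, uL6m) had 94.7, 78.5 and 75.3 reads over its S. pombe factor in the control strain with IAA, against 335, 396 and 384 with DMSO, a log2 change of -2.16 ± 0.21. MRPL1 had 105, 148 and 101 in the control strain with IAA against 526, 521 and 511 with DMSO, a log2 change of -2.15 ± 0.20. In the ET strain MRPL1 had 139, 186 and 169 with IAA against 444, 508 and 654 with DMSO, a log2 change of -1.70 ± 0.19. In both strains its groups were well apart. MRPL24, fitted only in the wider set of genes, had 111, 188 and 184 in the ET strain with IAA against 510, 629 and 866 with DMSO, a log2 change of -2.05 ± 0.19. In the control strain it had 134, 98.9 and 112 with IAA against 644, 543 and 598 with DMSO, a log2 change of -2.37 ± 0.20. Its groups did not overlap in either strain.

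Among the mitochondria-specific genes, MRPL17 had 59.6, 33.9 and 47.9 reads over the S. pombe factor in the control strain with IAA, against 228, 231 and 217 with DMSO, a log2 change of -2.23 ± 0.23. In the ET strain it had 68.1, 75.6 and 76.3 with IAA against 268, 259 and 281 with DMSO, a log2 change of -1.87 ± 0.22. The replicates of MRPL17 were close in all groups but the control strain with IAA. MRPL25 had 84.9, 114 and 137 in the ET strain with IAA, against 430, 429 and 531 with DMSO, a log2 change of -2.05 ± 0.20, and in the control strain, at 98.5, 79.9 and 86.1 with IAA against 310.0, 424 and 428 with DMSO, -2.13 ± 0.21. MRPL44 (mL53) fell by 1.72 ± 0.18 on the log2 scale in the ET strain, with 232, 229 and 278 with IAA against 763, 743 and 921 with DMSO. At the other end MRPL31 (YKL138C, mL60) had a log2 change of -1.07 ± 0.18 in the ET strain. It had 365, 288 and 341 in the control strain with IAA against 729, 783 and 780 with DMSO, a log2 change of -1.20 ± 0.18.

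MRPL31 was thus close to the median of all genes, and its T>C reads did not pass in either strain. MRPL3, whose T>C reads did not pass either, had fewer total reads with IAA in both strains, with log2 changes of -1.33 ± 0.21 in the ET strain and -1.49 ± 0.22 in the control strain. Over the 34 genes the labelled share with DMSO and the log2 change in all reads were weakly related, with Pearson's r of -0.23 in the ET strain and -0.30 in the control strain and Spearman's rho of -0.18 and -0.28. The genes share libraries and these values are a description.

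The direct comparison of the strains after IAA asked how much more new RNA of these genes there was with the ET domain. In T>C reads, none of the 28 genes passed in edgeR, and none passed in DESeq2. Of all genes tested, 0.707% passed in edgeR as higher and 0.571% as lower. An unadjusted p under 0.05 in edgeR was found for 6 of the 28. How many of all genes had one is not given, so this count does not set the MRPL genes apart. The median log2 difference was 0.50 for the MRPL genes and 0.17 for all genes, 26 of the 28 were above 0, and for 6 of the 28 all ET libraries lay above all control libraries, as they did for 14.1% of all genes tested. The largest difference was that of MRPL17, which had 7.39, 11.3 and 9.09 T>C reads over the size factor in the ET strain with IAA, against 4.82, 2.26 and 1.72 in the control strain with IAA. It came to 1.59 ± 0.68 and did not pass (edgeR adjusted p = 0.232).

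MRPL33 followed with 1.16 ± 0.55 (edgeR adjusted p = 0.294), where the ET libraries at 7.39, 25.2 and 7.95 overlapped the control libraries at 9.63, 2.26 and 5.17. With factors from the sum of S. cerevisiae reads 5 genes were higher in the ET strain, where 13.3% of all genes were. In all reads, 9 of the 28 genes were higher in the ET strain with IAA than in the control strain with IAA and none lower, against 14.5% of all genes tested higher and 1.99% lower, and the median log2 difference was 0.50 against 0.26. For 14 of the 28 all ET libraries lay above all control libraries, as they did for 21.8% of all genes tested. The 9 were MRPL6, MRPL15, MRPL33, MRPL20, MRPL23, MRPL38, MRPL10, MRPL22 and MRPL39.

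MRPL6 had 103, 160 and 174 reads over the S. pombe factor in the ET strain with IAA against 94.7, 78.5 and 75.3 in the control strain with IAA, a difference of 0.81 ± 0.21 (edgeR adjusted p = 0.00671). MRPL15 had 93.8, 129 and 123 against 61.5, 65.0 and 85.1, a difference of 0.70 ± 0.22 (edgeR adjusted p = 0.023). For both genes all ET libraries lay above all control libraries. The count of 9 moved with single libraries, as did the share of all genes. It was 0 without ET IAA replicate B, where 2.28% of all genes tested were higher, and 2 without ET IAA replicate C (1.46% of all genes), control IAA replicate B (6.80%) or control IAA replicate C (1.87%). It was 3 without control IAA replicate A (2.14% of all genes), 19 without ET DMSO replicate C (22.3%) and 24 without ET IAA replicate A (39.4%).

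In the MRPL genes the median T>C difference between the strains was smaller with DMSO than with IAA. Over all genes tested it was about the same, at 0.18 with DMSO and 0.17 with IAA. No gene of the 28 passed the test of the difference in response, given below. None of the 28 genes differed between the ET strain and the control strain with DMSO in T>C reads by edgeR (3 at an unadjusted p under 0.05, none in DESeq2) or in all reads (none at an unadjusted p under 0.05). Of all genes tested, 0.136% passed in edgeR as higher and 0.0272% as lower in T>C reads. The share with an unadjusted p under 0.05 is not given, so the count of 3 does not set the MRPL genes apart. The median log2 difference in T>C reads was 0.18 for the MRPL genes and 0.18 for all genes. The largest were those of MRPL33, at 0.67 ± 0.28 (edgeR adjusted p = 0.325) with 25.9, 30.4 and 46.7 in the ET strain and 21.7, 21.7 and 21.4 in the control strain, and of MRPL40 (YPL173W, uL24m), at -0.52 ± 0.34 (edgeR adjusted p = 0.548) with 11.2, 9.96 and 16.2 in the ET strain and 15.3, 20.5 and 17.7 in the control strain. In all reads the largest difference was that of MRPL38, at 0.28 ± 0.19.

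Whether the genes responded differently to depletion in the 2 strains was tested as the log2 change in the ET strain minus that in the control strain. In T>C reads the difference was above 0, a smaller fall in the ET strain, for 23 of the 28 genes, with a median of 0.35, where the median of all genes tested was -0.01. No gene of the 28 passed, none had an unadjusted p under 0.05 in edgeR, and none passed in DESeq2, while 0.0272% of all genes tested were called higher and 0.0816% lower. MRPL17 had the largest difference, at 1.46 ± 0.75 (edgeR adjusted p = 0.786), with log2 changes of -1.0 in the ET strain and -2.46 in the control strain. MRPL40 came next at 1.06 ± 0.68 (edgeR adjusted p = 0.855), with -0.47 in the ET strain and -1.53 in the control strain.

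In all reads the difference was above 0 for all 28 genes, with a median of 0.32 against 0.09 for all genes, and no gene of the 28 or of all those tested passed in edgeR (1 of the 28 at an unadjusted p under 0.05). The genes share libraries and the share of all genes above 0 is not given, so the counts of signs are a description. Nor is the share of all genes at an unadjusted p under 0.05 given, so the count of 1 is a description too. The largest differences were those of MRPL6 at 0.60 ± 0.28 and MRPL15 at 0.57 ± 0.29. MRPL15 and MRPL37 were at the low end in T>C reads, at -0.57 ± 0.61 and -0.67 ± 0.55. Single MRPL genes of the 28 had between 1 and 47 T>C reads in a library with IAA.

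**Figure D4:**
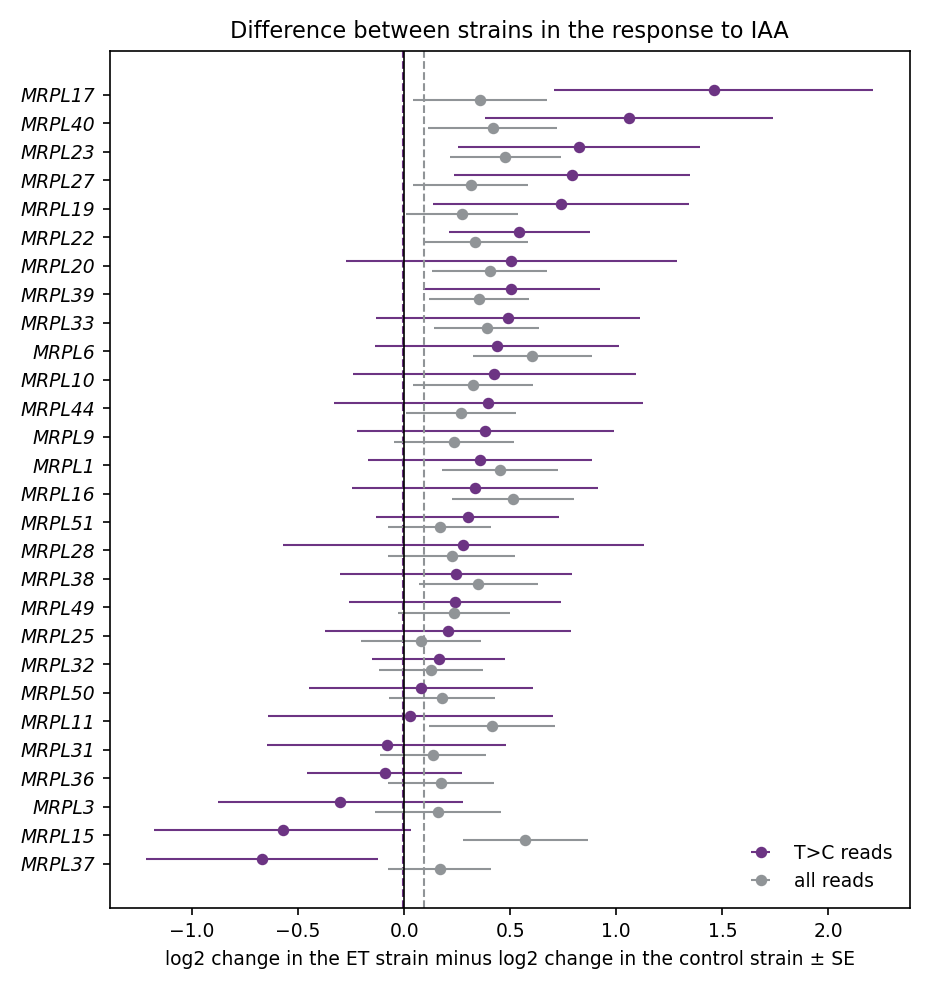
Log2 change with IAA in the ET strain minus that in the control strain for the 28 MRPL genes tested, in T>C reads (purple) and all reads (grey), with SE. Dashed lines are medians over all genes tested (-0.01 and 0.09), and the difference was above 0 for 23 genes in T>C reads and for 28 in all reads, with no gene past the threshold.

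The other genes of mitochondrial translation were read out in the same fit. Among 10 tested genes for other large-subunit proteins, 5 fell in the ET strain (median log2 change -0.80) and 7 in the control strain (median -1.04), and among 22 for the small subunit 10 fell in the ET strain (-0.72) and 13 in the control strain (-1.19). Of all genes tested, 30.2% fell in the ET strain and 28.7% in the control strain. None of either list rose. MRP49, a large-subunit gene, fell by 1.42 ± 0.38 in the ET strain, and IMG2, another, fell by 2.38 ± 0.64 in the control strain (log2, edgeR adjusted p = 0.00192 and 0.00168). MRP17 and RSM19, of the small subunit, fell by 1.71 ± 0.33 in the ET strain and 2.03 ± 0.53 in the control strain (edgeR adjusted p = 1.54e-05 and 0.00118), and the interval of RSM19 overlaps a neighbour. No more than 3 genes each of the translation factors, tRNA synthetases and assembly factors had T>C reads in every library. Of these MEF1, an elongation factor whose interval overlaps a neighbour, fell by 1.63 ± 0.43 and MSY1, a tyrosyl-tRNA synthetase, by 1.65 ± 0.55 in the ET strain, and MSR1, an arginyl-tRNA synthetase whose interval also overlaps one, by 1.36 ± 0.29 in the control strain (edgeR adjusted p = 0.00187, 0.0108 and 5.65e-05). In the control strain MSY1 had 3.21, 9.03 and 6.90 T>C reads over the size factor with IAA against 4.46, 3.84 and 4.43 with DMSO, and these groups overlap.

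The sequence features were set beside these changes. Outside the genes of mitochondrial translation listed above, T>C reads fell in 33.5% of 489 tested genes with TGTANATA after the stop codon and in 30.4% of 2966 without it in the ET strain, and in 33.3% and 28.3% in the control strain. The median log2 changes were -0.59 with the motif and -0.49 without it in the ET strain, and -0.68 and -0.47 in the control strain. By these medians, genes with the site outside the list lay nearer to all genes than to the MRPL genes. They were not split by the C 2 bases before the site, and an effect of the site was not tested. In all reads, 87.1% of these genes with the motif and 76.5% of those without it fell in the ET strain, and 85.5% and 74.9% in the control strain, with medians of -1.16 and -1.04 in the ET strain and -1.30 and -1.13 in the control strain. Within the MRPL genes, the 7 tested with 2 or 3 copies had a median of -0.84 in the ET strain and -1.20 in the control strain, against -0.96 and -1.27 for the 21 with 1 copy. The 11 tested MRPL genes with TATAAA had medians of -0.996 in the ET strain and -1.21 in the control strain, and the 17 without it -0.84 and -1.31.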

How the data were processed

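SLAM-seq read counts of 12 libraries (4 groups of 3 biological replicates) were used as deposited. The authors trimmed reads with fastp 0.23.2 and, per the file headers, counted with SLAM-DUNK 0.4.3 the reads and the T>C reads (at least 2 T>C conversions) of each S. cerevisiae gene with 250 bp added at its 3′ end (R64), and likewise for S. pombe (ASM294v2). These deposited counts carry no normalization. No other per-sample column was left unmapped.

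Groups came from the sample labels. Genes for which no library lacked a T>C read were tested with edgeR 4.0.16 (quasi-likelihood test, R 4.3.3, all 12 libraries in one fit, no replicate block) and p-values were adjusted by Benjamini-Hochberg over all genes tested, with a threshold of 0.05. T>C counts were scaled by median-of-ratios size factors of all reads, and all reads by the S. pombe total. Alternatives were other factors, filters, DESeq2 1.42.0, a replicate block, a call rule of 1.5-fold with unadjusted p, and leaving out each library. The procedure was tested on simulated data. Sums, labelled shares and motif searches used Python 3.11.15. Total counts per library were 6279282 to 11395597, and single genes with few T>C reads were correspondingly imprecise.

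The 34 genes and the lists of other mitochondrial translation genes were chosen with earlier results of these data known. Every member was named, and values per library were given for up to 4 members with the largest change past the threshold in each depletion comparison, for up to 2 each way in the others (or the 2 largest where fewer passed), and for at most 1 gene each way of each other list. MRPL3, MRPL13, MRPL24, MRPL27, MRPL31 and MRPL32 were given values after those had been seen. An alternative with at least 10 reads in every library was added after the data were seen.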

Additional observations from a re-analysis of the deposited data

How the results depend on the processing

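The T>C changes depended most on the scaling. In the ET strain the median log2 change of the MRPL genes was -2.08 with S. pombe reads, -1.83 with the sum of S. cerevisiae reads and -0.55 with TMM factors from T>C counts, with 28, 28 and 6 genes lower, and 11 genes were lower in DESeq2. In the control strain it was -2.57, -2.39 and -0.88 under these settings, with 9 genes lower under TMM factors. The medians of all genes moved too, to -1.64, -1.40 and -0.11 in the ET strain and -1.78, -1.61 and -0.09 in the control strain. With S. pombe reads 83.7% of all genes fell in the ET strain, and with the sum of S. cerevisiae reads 79.6%. With TMM factors 21.0% of all genes rose and 11.4% fell in the ET strain, and 22.5% rose and 14% fell in the control strain. TMM factors turned the sign of MRPL3 (0.12) and MRPL31 (0.029) in the control strain, and S. pombe reads and the sum of S. cerevisiae reads that of MRPL27 in the ET strain (-0.995 and -0.76). The MRPL median minus that of all genes in the control strain, -0.79, was -0.53 with no filter and -0.65 where genes averaged 10 or more T>C reads.

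Between the strains with IAA, the median T>C difference was 0.81 with S. pombe reads, 0.77 with S. cerevisiae reads and 0.32 with TMM factors, and 5 genes were higher with S. cerevisiae reads and 5 under the rule of 1.5-fold and unadjusted p. With DMSO, 1 gene was higher under that rule, and the median was 0.001 with TMM factors. The share of all genes under that rule is not given, so its counts do not set the MRPL genes apart. The median difference in response was 0.57 with S. cerevisiae reads. In all reads the control median was -1.68 with S. cerevisiae reads, its distance from all genes was -0.56 in the added fit, and 23 genes were higher in the ET strain with IAA with S. cerevisiae reads, as were 32.4% of all genes.

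Leaving out 1 library at a time, the genes lower in T>C reads in the ET strain numbered 8 to 19, the control median was -1.35 to -1.16 and its distance from all genes -0.87 to -0.68. The shares of all genes beside the lowest of these gene counts are given above. The strain median with IAA was 0.45 to 0.64 and its distance 0.23 to 0.49. In all reads the control distance was -0.80 to -0.60, and 0 to 24 genes were higher in the ET strain with IAA. MRPL3 ran from -0.67 to 0.28 in the control strain and MRPL27 from -0.18 to 0.34 in the ET strain. The cause of these shifts was not tested.

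Deviations of same-letter replicates were at most weakly related (r from -0.0127 to 0.0496 over 6 pairs of libraries across genes), and the letters were not taken as pairs. With few T>C reads for many genes, r can stay near 0 even for paired cultures, so this check could not exclude pairing. With a replicate block, 17 genes fell in T>C reads in the ET strain and 22 in the control strain, as many as without it. The share of all genes that fell under the block is not given, so these counts do not set the MRPL genes apart. With the block, 14 rather than 9 genes were higher in all reads in the ET strain with IAA, with 625 rather than 533 of all 3677 genes higher. In the ET strain each library correlated best with its own letter, which did not hold in the control strain.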
